A study of Mus musculus with 16 samples.

Results

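The genes of glycolysis and of the response to low oxygen were followed in regulatory T cells (Treg) of the mouse, before and after 3 days in a culture in which Treg suppress other T cells. The list of genes held 37 symbols: enzymes that split glucose, genes that set the flow into and out of that pathway, the oxygen sensors, and further genes known to respond to low oxygen. A gene was measured where a probe set of the array was annotated to its symbol and to no other, and its brightest such probe set was read, which gave 34 of the 37 genes among 19938 genes on the array. Gpi1, Eno1 and Ero1l had no probe set annotated to these symbols alone and were not analysed here. Of the 34 genes, 14 encode glycolytic enzymes, 6 act on flux and side branches, 3 belong to oxygen sensing and 11 are other hypoxia response genes.

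Treg came from lymph nodes of several sites, pooled, of wild-type female C57BL/6 mice aged 8 to 12 weeks. They were sorted by CD103 (encoded by Itgae), an integrin chain, and by ICOS, a costimulatory receptor, into cells with neither (double-negative), with CD103 only (CD103 single-positive), with ICOS only (ICOS single-positive) and with both (double-positive). RNA was taken either directly after the sort (fresh) or after the suppression culture (activated). Each culture well held 200000 Treg of 1 subset, 1000000 naive CD4 cells carrying the Ly5.1 allele, 2000000 irradiated Rag2-/- splenocytes and soluble anti-CD3 at 0.5 ug/ml, and the Treg were then sorted again as CD4+ CD25+ cells without Ly5.1, which marks them only by the absence of the partner cells' allele and by CD25. Each of the 8 groups has 2 arrays, labelled as biological replicates, and 2 independent experiments are stated for the series, with 270 ng of RNA in each labelling. The labels give the same strain and sex for all Treg, and the groups differ in the sorted subset and in the fresh or cultured state.

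Glycolysis turns glucose into pyruvate and, where lactate dehydrogenase takes over, into lactate, which a monocarboxylate transporter carries out of the cell. Hypoxia-inducible factor, whose oxygen-regulated subunit is Hif1a, raises the transcription of most of these enzymes, and prolyl hydroxylases of the Egln family mark that subunit for destruction while oxygen is present. T cells take up this programme when they are activated and divide, also in normal oxygen, and Treg have been described to rely on it less than conventional T cells do.

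The values are log2 intensities of an expression array, so a difference of 1 is a doubling of signal, and the level of 1 gene cannot be set against that of another. The median over all probe sets ran from 6.258 to 6.476 on the 16 arrays, and the median gene had a mean level of 6.66. Arrays carry no read depth, and the 2 arrays per group limit the precision of every value. Foxp3, the factor that defines Treg, read 11.69 to 12.84 on 15 arrays and 8.53 on activated ICOS single-positive replicate 2, where Icos read 11.25 against 12.88 on its partner array. The mean level of 10 Treg markers was 9.94 on that array and 11.03 to 12.26 on the others, and that of 11 markers of conventional CD4 T cells was 9.13, against 7.45 to 8.98. Results that use this array are given with it, and without it for the 34 genes and where the call of another named gene changed, the latter leaving 1 array in its group, whose spread is then taken from the other groups. The list of CD8 T and NK cells had a mean of 6.39 on that array, 5.46 on its partner and 5.36 to 6.13 on the others, and the lists of B cells, of myeloid cells and of erythroid cells and platelets had means between 5.40 and 6.81 on every array. In these bulk samples fewer cells of a type and less RNA per cell cannot be told apart. Itgae read 10 on activated ICOS single-positive replicate 1 and 6.3 on replicate 2. Activated double-negative arrays read 7.31 and 7.95, CD103 single-positive 9.94 and 9.87, and double-positive 11.18 and 11.08. By Itgae RNA replicate 1 thus lay with the activated CD103 single-positive arrays, though its cells were sorted as CD103-negative before culture. The cause was not tested.

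The first question was how the suppression culture changed these genes. Averaged over the 4 subsets, 26 of the 34 genes were higher in activated than in fresh cells and 0 were lower (limma, adjusted p below 0.05 over all genes), where 31.2% of all genes passed in either direction and 14.4% upward. The median log2 difference of the 34 genes was 1.04, that of all genes -0.003. For 18 of the 34 genes (52.9%) all 8 activated arrays lay above all 8 fresh arrays, a pattern met by 3.27% of all genes, and for 0 of the 34 did they lie below, against 3.86%. Of the glycolytic enzymes 11 of 14 rose, of the flux and branch genes 3 of 6, of the oxygen sensing genes 3 of 3, and of the other hypoxia response genes 9 of 11. The genes that did not pass were Hk1 (-0.12), Kdm3a (-0.11), Ddit4 (0.08), Pfkfb3 (0.18), Pdk1 (0.18), Eno2 (0.21), Eno3 (0.46) and Gbe1 (0.47). Without activated ICOS single-positive replicate 2, 26 genes were again higher, where 30.7% of all genes passed. Other lists moved with the same comparison: 19 of 19 cell cycle genes were higher (median 2.86). Of 10 Treg markers 2 were higher and 3 lower, among them Nrp1 (-2.53), and of 6 T cell markers 3 were lower. Of 11 markers of conventional CD4 T cells 4 were higher, among them Il21 (2.0) and Il3 (1.68), and 3 lower. Il3 had a mean level below that of the median gene in every group except activated double-positive cells. The marker counts include activated ICOS single-positive replicate 2, the array with the lowest mean level of Treg markers (9.94). The part of these lists in the result was not tested.

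**Figure D1:**
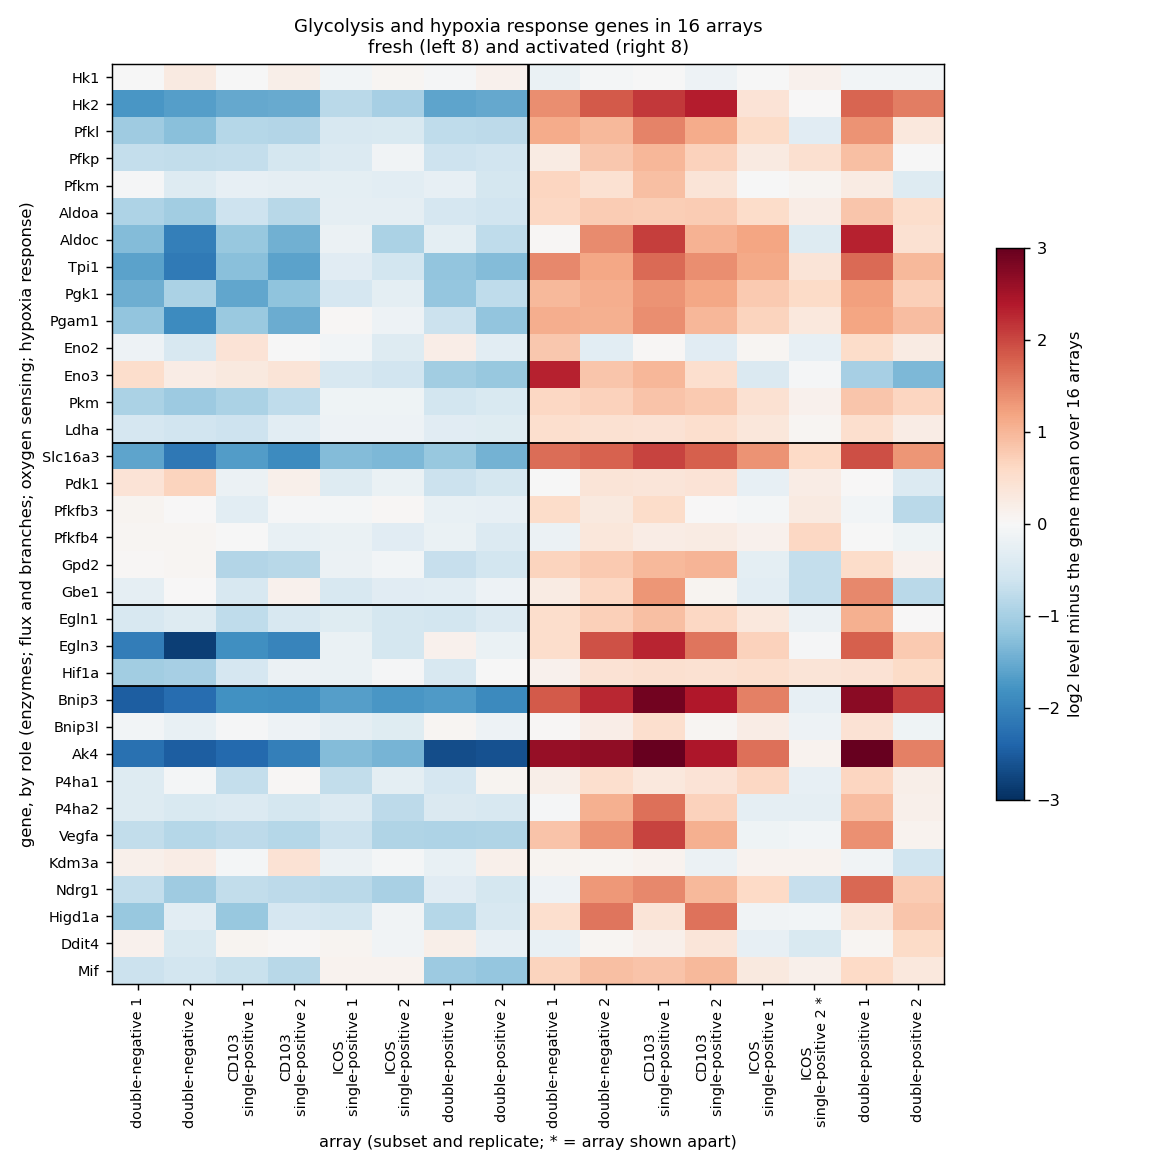
Heat map of the 34 genes (rows, by role) on the 16 arrays (columns, 8 fresh on the left and 8 activated on the right), coloured by log2 level minus the gene's mean over all arrays. Most rows turn from blue to red between the states, and the column marked with an asterisk, activated ICOS single-positive replicate 2, is paler than the other activated columns, with a mean over the 34 genes of 0.00.

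Among the enzymes, the strongest rise was that of Hk2, the hexokinase that is induced in activated and dividing cells. In fresh cells Hk2 read 6.35 and 6.44 in the double-negative, 6.56 and 6.58 in the CD103 single-positive, 7.30 and 7.11 in the ICOS single-positive and 6.51 and 6.56 in the double-positive arrays. After activation it read 9.49 and 9.95, 10.23 and 10.45, 8.52 and 8.11, and 9.84 and 9.64 in the same order. All 8 activated arrays exceeded all 8 fresh ones, and the mean difference was 2.85 ± 0.09 (SE), 7.21-fold, with an adjusted p of 2.31e-09 (limma). Its sister enzyme Hk1, which most tissues use at rest, lay between 12.67 and 13.13 on all 16 arrays. The brightest Hk1 probe set has an identifier that lies among those of another chromosome's genes and may read a copy, while the set among those of its own chromosome differed by 0.583, so the direction for Hk1 is uncertain.

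Tpi1, triose phosphate isomerase, read 9.21 and 8.70, 9.56 and 9.20, 10.48 and 10.27, and 9.62 and 9.50 in fresh cells, in the same order of subsets. Activated cells of these subsets read 12.25 and 11.98, 12.52 and 12.21, 11.95 and 11.20, and 12.52 and 11.79. Its difference of 2.49 ± 0.14 (SE) was a 5.60-fold rise, and the lowest activated array still lay above the highest fresh one. Pgk1, the phosphoglycerate kinase that yields the first ATP of the pathway, read 10.17 to 10.97 on the 6 fresh arrays outside the ICOS single-positive subset and 11.21 and 11.42 within it, against 12.29 to 13.07 on the activated arrays. Pgam1, the phosphoglycerate mutase of the next step, read 9.63 to 10.87 on those 6 fresh arrays, 11.55 and 11.36 in fresh ICOS single-positive cells and 11.85 to 12.92 after activation. Both rose (1.98 ± 0.11 and 1.91 ± 0.13, SE; limma, adjusted p 2.47e-07 and 1.05e-06), and in both the fresh ICOS single-positive arrays stood closest to the activated ones.

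Aldoc, an aldolase isoform known from brain, read 6.22 to 8.10 on the fresh arrays and 7.89 to 10.59 on the activated ones. The states overlapped, since activated ICOS single-positive replicate 2 (7.89) fell below fresh ICOS single-positive replicate 1 (8.10), and the rise of 2.03 ± 0.35 (SE) had an adjusted p of 0.000842 (limma). Aldoa, the main aldolase, rose by 1.26 from a fresh range of 11.57 to 12.35 to 12.84 to 13.44, with no overlap. Pfkl, a phosphofructokinase subunit at the committed step, rose by 1.64, from 8.42 to 9.21 fresh to 9.33 to 11.17 activated. The other subunits rose less, Pfkp by 1.09 and Pfkm by 0.58. At the end of the pathway Pkm, pyruvate kinase, rose by 1.25 and Ldha, the lactate dehydrogenase subunit that favours lactate, by 0.75, from 12.28 to 12.75 fresh to 12.96 to 13.41 activated. Enolase stood apart from this: Eno2 and Eno3, the neuronal and the muscle isoform, did not pass, and the common isoform Eno1 was not measured under its own symbol.

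Of the flux and branch genes, Slc16a3, the exporter of lactate known as MCT4, rose most. Fresh arrays read 8.18 and 7.62 in double-negative, 8.08 and 7.87 in CD103 single-positive, 8.46 and 8.40 in ICOS single-positive and 8.62 and 8.33 in double-positive cells. Activated arrays read 11.44 and 11.52, 11.79 and 11.54, 11.10 and 10.35, and 11.70 and 11.09 in that order. The gap between the states was wide in every subset, and the mean difference was 3.12 ± 0.13 (SE), 8.70-fold (limma, adjusted p 2.78e-08). Gpd2, the mitochondrial glycerol phosphate dehydrogenase that carries reducing power from the cytosol into the respiratory chain, rose by 0.78 on average, though not in every subset, as described further on. Pfkfb4, which like Pfkfb3 makes the activator of phosphofructokinase, rose by 0.31 (adjusted p 0.0247, limma) and was called in fewer than all settings of the processing. Pfkfb3 itself ranged from 7.86 to 8.28 on fresh and from 7.39 to 8.74 on activated arrays, a difference of 0.18 ± 0.12 (SE) with an adjusted p of 0.305 (limma). Pdk1, the kinase that holds pyruvate back from the mitochondrion, and Gbe1, the glycogen branching enzyme, did not pass either.

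All 3 oxygen sensing genes rose. Hif1a read 11.05 and 11.10, 11.58 and 11.92, 11.89 and 12.06, and 11.61 and 12.07 in the fresh cells of the 4 subsets in that order, and 12.22 and 12.53, 12.56 and 12.55, 12.60 and 12.46, and 12.51 and 12.65 after activation. Its rise of 0.85 ± 0.08 (SE) was 1.81-fold (limma, adjusted p 1.68e-05), and the 8 activated arrays, from 12.22 to 12.65, lay above all fresh ones. Egln1, the main hydroxylase that acts on Hif1a, rose by 1.0, from 9.06 to 9.46 fresh to 9.64 to 10.89 activated. Egln3, a hydroxylase that is itself induced by hypoxia-inducible factor, rose by 2.38 ± 0.24 (SE), 5.21-fold. Its fresh levels already differed by subset: 7.85 and 7.08 in double-negative and 8.08 and 7.93 in CD103 single-positive cells, against 9.71 and 9.39 in ICOS single-positive and 10.04 and 9.71 in double-positive cells. After activation it read 10.43 and 11.83, 12.19 and 11.51, 10.61 and 9.87, and 11.70 and 10.69, so that fresh and activated ICOS-positive cells overlapped.

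Among the other hypoxia response genes Ak4 and Bnip3, which act at the mitochondrion, had the largest differences. Ak4, an adenylate kinase of the mitochondrial matrix, read 5.32 to 6.68 on fresh arrays and 8.09 to 11.03 on activated ones, a difference of 4.26 ± 0.25 (SE), 19.2-fold (limma, adjusted p 2.95e-07). That value rests on a probe set whose identifier lies among those of another chromosome's genes, and the set among those of Ak4's own chromosome gave 1.063, below the values of Bnip3, Slc16a3 and Hk2. Bnip3, a receptor that directs mitochondria to autophagy, read 6.95 and 7.14, 7.62 and 7.60, 7.77 and 7.69, and 7.73 and 7.52 in the fresh subsets and 11.28 and 11.70, 12.32 and 11.84, 10.95 and 9.18, and 12.15 and 11.48 in the activated ones. It rose by 3.86 ± 0.22 (SE), 14.5-fold, and by 3.517 on the set of its own chromosome. Its relative Bnip3l, which has the same task and is known from maturing red cells, rose by 0.30 (adjusted p 0.0418, limma), a call lost in 13 of 24 other settings. Higd1a, an inner membrane protein, was higher by 1.27, but only by 0.199 on the set of its own chromosome, which did not pass.

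Vegfa, the angiogenic growth factor, read 6.49 to 6.78 on all fresh arrays, and 8.29 and 8.78, 9.44 and 8.50, 7.29 and 7.35, and 8.79 and 7.54 in the activated subsets, again in that order. The rise of 1.65 ± 0.18 (SE) was 3.13-fold (limma, adjusted p 3.86e-05). Ndrg1, a stress response gene, rose by 1.49, Mif, a cytokine that T cells store, by 1.18, and the collagen hydroxylase subunits P4ha2 and P4ha1 by 0.98 and 0.65. Kdm3a, a histone demethylase, and Ddit4, an inhibitor of the growth kinase complex mTORC1, did not pass: Kdm3a lay between 8.73 and 9.76 on all arrays and Ddit4 between 10.08 and 11.13. Both are induced by low oxygen in many cell types.

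The promoter windows of the 6 genes with the largest changes on their brightest probe sets are shown. They hold the core of the hypoxia response element in different numbers, from 5 matches to 0. Ak4 is among them by its brightest set (4.26), while the set of its own chromosome gave 1.063. The windows run from 250 bases before to 50 after the start of the gene and come from RefSeq on GRCm38.p6. Capitals mark ACGTG or GCGTG on either strand, read as CACGT or CACGC on the other one, in Ak4 (chr4:101419039-101419338, plus strand, 2 matches, 1 of 4 windows listed for this gene), Bnip3 (chr7:138909457-138909756, minus strand, 5 matches), Slc16a3 (chr11:120948817-120949116, plus strand, 2), Hk2 (chr6:82774405-82774704, minus strand, 2), Egln3 (chr12:54203825-54204124, minus strand, 1) and Tpi1 (chr6:124814109-124814408, minus strand, 0).
Ak4: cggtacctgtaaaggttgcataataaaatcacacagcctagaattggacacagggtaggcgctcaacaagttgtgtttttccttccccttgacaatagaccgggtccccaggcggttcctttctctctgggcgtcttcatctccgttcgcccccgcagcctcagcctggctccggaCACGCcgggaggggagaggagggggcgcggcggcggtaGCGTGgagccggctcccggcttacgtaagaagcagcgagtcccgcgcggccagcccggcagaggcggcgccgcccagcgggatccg
Bnip3: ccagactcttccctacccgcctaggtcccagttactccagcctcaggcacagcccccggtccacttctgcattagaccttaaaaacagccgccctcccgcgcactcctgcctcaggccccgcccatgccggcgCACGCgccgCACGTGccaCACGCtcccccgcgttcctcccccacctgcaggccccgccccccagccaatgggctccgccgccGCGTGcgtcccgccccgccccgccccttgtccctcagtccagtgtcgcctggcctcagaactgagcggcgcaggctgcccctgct
Slc16a3: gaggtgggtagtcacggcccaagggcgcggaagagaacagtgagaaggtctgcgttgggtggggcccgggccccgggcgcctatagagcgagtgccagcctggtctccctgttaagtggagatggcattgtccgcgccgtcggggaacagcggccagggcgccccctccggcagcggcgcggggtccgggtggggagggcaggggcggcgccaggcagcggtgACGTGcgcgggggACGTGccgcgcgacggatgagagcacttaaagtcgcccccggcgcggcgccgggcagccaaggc
Hk2: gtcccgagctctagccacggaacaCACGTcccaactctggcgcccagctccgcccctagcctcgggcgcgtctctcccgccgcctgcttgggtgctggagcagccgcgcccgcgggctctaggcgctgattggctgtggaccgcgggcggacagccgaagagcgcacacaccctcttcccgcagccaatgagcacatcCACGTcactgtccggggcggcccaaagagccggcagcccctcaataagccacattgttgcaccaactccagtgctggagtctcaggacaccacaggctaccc
Egln3: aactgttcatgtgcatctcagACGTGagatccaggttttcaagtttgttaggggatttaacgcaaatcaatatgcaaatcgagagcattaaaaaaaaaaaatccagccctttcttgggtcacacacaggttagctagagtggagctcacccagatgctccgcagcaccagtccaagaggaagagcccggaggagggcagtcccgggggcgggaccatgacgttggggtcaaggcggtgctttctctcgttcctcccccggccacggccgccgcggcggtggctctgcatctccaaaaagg
Tpi1: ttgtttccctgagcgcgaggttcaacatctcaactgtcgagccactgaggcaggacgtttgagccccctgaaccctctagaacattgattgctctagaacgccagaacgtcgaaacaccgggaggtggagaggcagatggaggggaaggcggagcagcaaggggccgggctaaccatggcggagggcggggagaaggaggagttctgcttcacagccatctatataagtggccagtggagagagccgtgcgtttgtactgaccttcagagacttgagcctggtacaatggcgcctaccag
In Bnip3, 2 of the 5 matches are the opposite strands of 1 E-box, CACGTG, which contains ACGTG. A window was found for 32 of the 34 genes, and 24 of these (75.0%) held at least 1 core match, against 43.8% of 27025 genes with a window of the same length. Among the genes that rose, 19 of 24 held a match, and among those that did not pass, 5 of 8. The E-box stood in 4 of the 32 windows (12.5%) and in 7.24% of all genes. The list holds genes known to respond to low oxygen, and the background of all genes was not matched for base composition or expression. The shares are therefore described only. A match describes the letters in the window and is not a measured binding site.

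Within single subsets the number of genes called differed. In double-negative cells 22 of the 34 genes were higher, where 16.2% of all genes passed and 8.65% were higher (limma, adjusted p below 0.05). In CD103 single-positive cells 23 were higher (20.2% of all genes passed, 10.2% higher), in double-positive cells 18 (14.1% and 5.36%) and in ICOS single-positive cells 6 (2.09% and 1.03%), with 0 of the 34 lower in any subset. The median log2 difference of the 34 genes was 1.28, 1.56, 1.03 and 0.53 in that order, against medians from -0.062 to 0.039 for all genes. In ICOS single-positive cells the genes called were Bnip3 (2.33), Slc16a3 (2.30), Ak4 (2.22), Hk2 (1.11), Pgk1 (1.09) and Aldoa (0.66). Hk2 rose by 3.77 in CD103 single-positive, 3.32 in double-negative and 3.20 in double-positive cells, 9.21-fold or more, against 2.15-fold in ICOS single-positive cells. Mif rose by 1.38, 1.67 and 1.57 in double-negative, CD103 single-positive and double-positive cells and differed by 0.11 in ICOS single-positive cells, where it did not pass.

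Without activated ICOS single-positive replicate 2, the ICOS single-positive comparison again called 6 genes (1.62% of all genes), with Tpi1 (1.58, adjusted p 0.0326, limma) in place of Pgk1 (1.20, adjusted p 0.067), and with larger differences for Bnip3 (3.21), Ak4 (2.99) and Slc16a3 (2.68). This count depended on single arrays: it was 1 without either fresh ICOS single-positive array and 3 without either activated CD103 single-positive array. Slc16a3 passed in every setting, and the call for Ak4 was lost in 15 of 24. On the probe sets of the genes' own chromosomes, an alternative chosen after the data were seen, 4 genes passed, Bnip3 and Ak4 no longer among them.

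**Figure D2:**
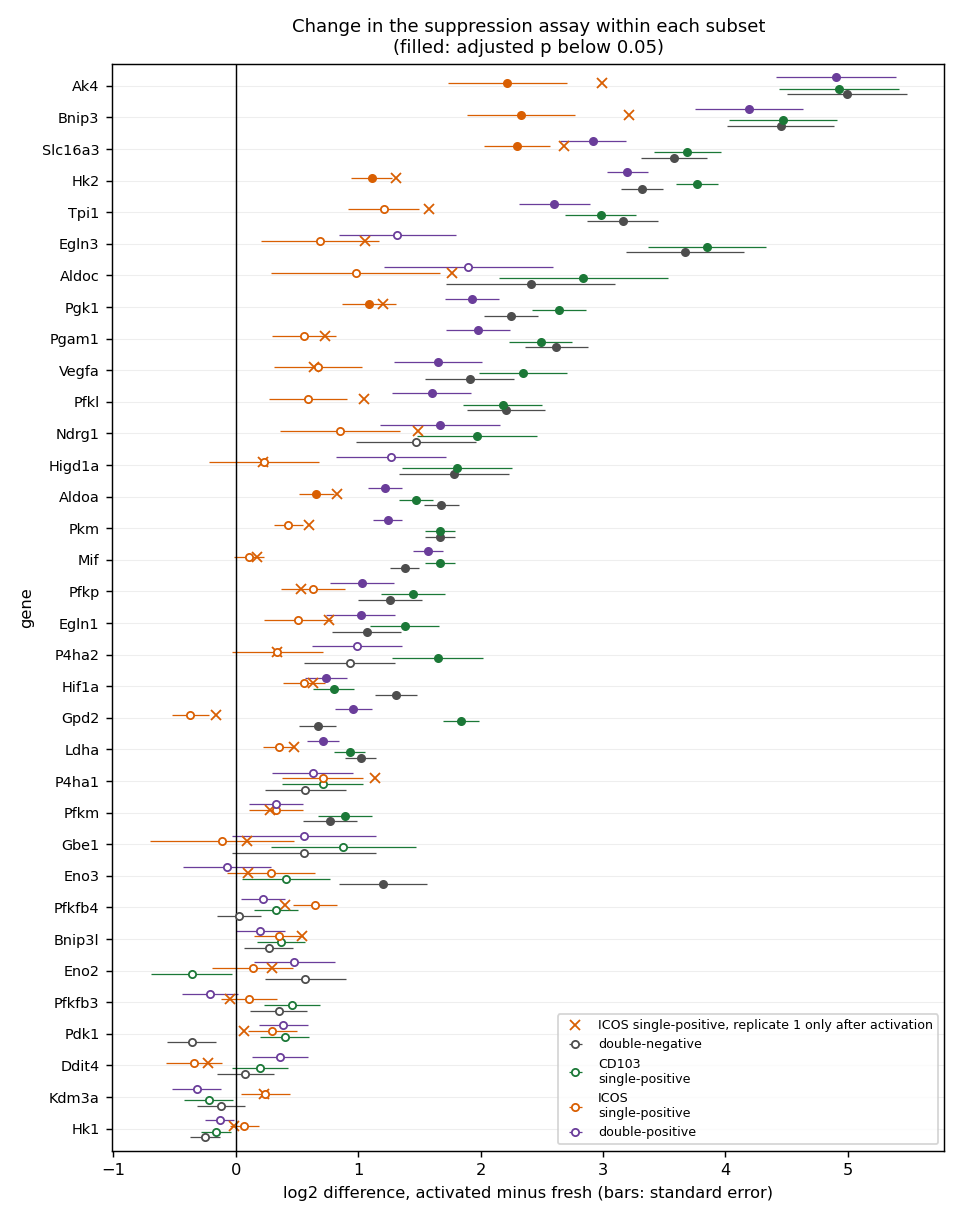
Log2 difference between activated and fresh cells (horizontal axis) for each of the 34 genes in the 4 subsets, with standard errors; filled points have an adjusted p below 0.05 and crosses show ICOS single-positive cells without activated replicate 2. The ICOS single-positive points lie to the left of the other subsets for most of the genes that rose, as for Hk2 (1.11 against 3.20 to 3.77).

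The levels behind these differences are the mean centred log2 levels of the 34 genes on each array, where 0 is a gene's mean over all 16 arrays. Fresh double-negative arrays stood at -0.72 and -0.82, CD103 single-positive at -0.74 and -0.67, double-positive at -0.63 and -0.66 and ICOS single-positive at -0.41 and -0.45. Activated arrays stood at 0.65 and 0.90, 1.10 and 0.83, 0.92 and 0.33, and 0.36 and 0.00 in that order. The fresh ICOS single-positive arrays were thus the highest of the fresh ones and activated ICOS single-positive replicate 2 the lowest of the activated ones, while its partner at 0.36 lay next to activated double-positive replicate 2 at 0.33. Among the activated pairs, replicate 2 read below replicate 1 for 24 of the 34 genes in ICOS single-positive cells (46.2% of all genes), for 24 in CD103 single-positive (65.3%), for 30 in double-positive (56.9%) and for 9 in double-negative cells (61%). Pairs of fresh arrays differed over 2-fold in 0 of the 34 genes, and in 24 to 148 of all 19938 genes. Activated pairs did so in 7 of the 34 in double-negative (413 of all genes) and 3 in CD103 single-positive cells (202). In ICOS single-positive cells it was 4 (685), and in double-positive cells 7 (167).

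**Figure D3:**
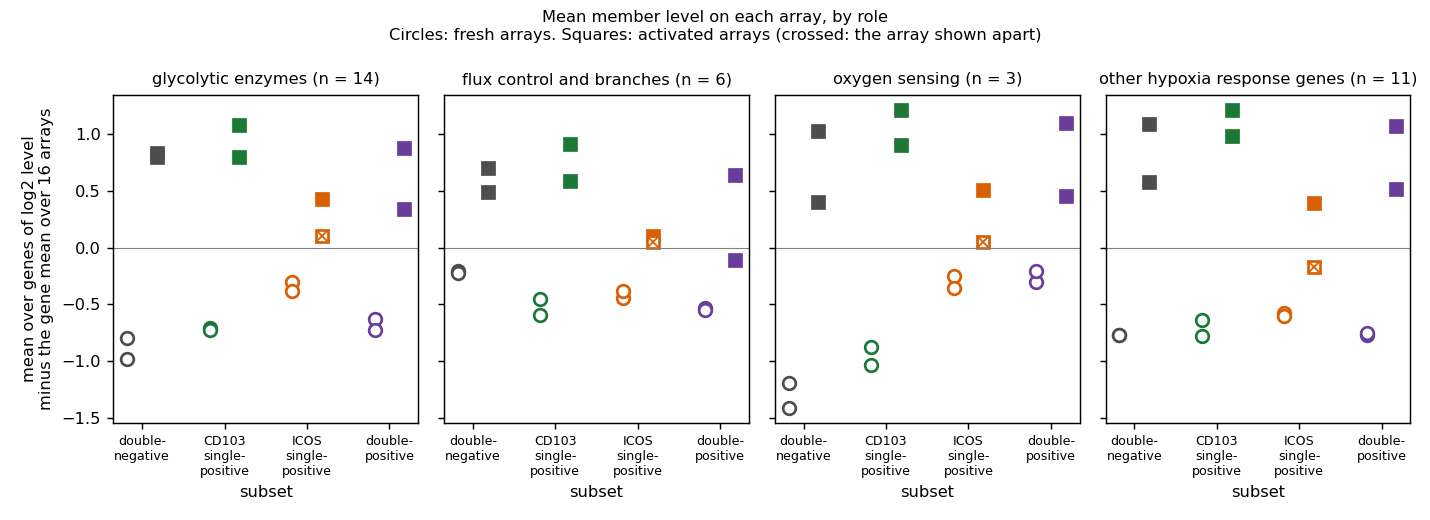
Mean centred log2 level of the genes of each role (vertical axis) on each array, by subset (horizontal axis); open circles are fresh arrays, filled squares activated arrays and the crossed square is activated ICOS single-positive replicate 2. Among the glycolytic enzymes the fresh ICOS single-positive arrays (-0.30 and -0.38) lie above the other fresh arrays (-0.98 to -0.63), and in oxygen sensing both ICOS-positive subsets do. The oxygen sensing mean covers 3 genes, whose fresh ICOS differences ran from 0.07 to 1.98, the largest in Egln3.

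Among fresh cells the comparison of ICOS-positive with ICOS-negative subsets, averaged over CD103, asked whether the genes already differed before culture. It called 9 of the 34 genes (26.5%), 7 higher and 2 lower, where 6.53% of all genes passed, 4.1% higher and 2.43% lower (limma, adjusted p below 0.05). The median over the 34 genes was 0.17 and over all genes -0.051. Of the 14 glycolytic enzymes 5 were higher, Pgam1 by 0.92 ± 0.18 (SE), Tpi1 by 0.80 ± 0.20, Pgk1 and Pkm by 0.61 ± 0.16 and 0.61 ± 0.09, and Aldoa by 0.45 ± 0.10, and 1 was lower. Both other genes that were higher belong to oxygen sensing, Egln3 by 1.98 ± 0.34, 3.94-fold, and Hif1a by 0.49 ± 0.12. For Hif1a the CD103 single-positive arrays (11.58 and 11.92) overlapped the ICOS-positive ones (11.61 to 12.07), and the double-negative arrays were lowest (11.05 and 11.10). Of the 11 other hypoxia response genes 0 passed, with differences from -0.26 to 0.35, while 3686 of all genes had an unadjusted p below 0.05.

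Fresh levels of the enzymes and of Egln3 had different orders over the subsets. Pkm read 10.77 and 10.62 in double-negative, 10.77 and 10.94 in CD103 single-positive, 11.57 and 11.58 in ICOS single-positive and 11.16 and 11.25 in double-positive cells, and Aldoa read 11.68 and 11.57, 12.00 and 11.78, 12.34 and 12.35, and 12.10 and 12.04 in that order. Both were highest in ICOS single-positive cells, with double-positive cells next. For 11 of the 34 genes (32.4%, against 6.21% of all genes) both fresh ICOS single-positive arrays lay above the other 6 fresh arrays: Hk2, Pfkl, Pfkp, Aldoa, Tpi1, Pgk1, Pgam1, Pkm, Ldha, Ak4 and Mif. Bnip3l was the 1 gene for which both lay below (8.01% of all genes). Egln3 overlapped between double-positive and ICOS single-positive cells (10.04 and 9.71 against 9.71 and 9.39). The fall in ICOS-positive cells concerned Eno3 (-1.16 ± 0.26, SE) and Pdk1 (-0.71 ± 0.14). Eno3 read 9.49 and 9.19, 9.26 and 9.35, 8.48 and 8.40, and 7.92 and 7.84, and Pdk1 read 9.57 and 9.83, 8.98 and 9.30, 8.77 and 8.95, and 8.51 and 8.63, both lowest in double-positive cells.

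The count of 9 genes rested on single arrays. It was 2 without fresh ICOS single-positive replicate 1, 3 without CD103 single-positive replicate 2, 4 without ICOS single-positive replicate 2 or double-positive replicate 2, and 5 without CD103 single-positive replicate 1, double-positive replicate 1 or double-negative replicate 2. Pkm and Egln3 passed under each of these and under every other setting tried. Cell cycle genes moved with the same comparison: 19 of 19 measured were higher in ICOS-positive fresh cells, with a median of 2.08, and their mean level was 9.52 and 9.67 on the ICOS single-positive and 8.77 and 9.01 on the double-positive arrays, against 6.92 to 7.20 on the ICOS-negative ones. Their part in the differences of the glycolytic genes was not tested.

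The same question was asked of CD103 in fresh cells. Between CD103-positive and CD103-negative subsets 2 of the 34 genes differed (0.206% of all genes passed, 0.0652% in this direction), both lower with CD103: Gpd2 by -0.70 ± 0.11 (SE; limma, adjusted p 0.0376) and Mif by -0.69 ± 0.09 (0.0131). Gpd2 read 8.25 and 8.26 in double-negative and 8.03 and 8.13 in ICOS single-positive cells, against 7.33 and 7.38 in CD103 single-positive and 7.52 and 7.65 in double-positive cells. The CD103-positive arrays all lay below the CD103-negative ones. Mif read 11.13 and 11.22, 11.89 and 11.89, 11.11 and 10.94, and 10.70 and 10.62 in that order of subsets, with the lowest values in double-positive cells. Leaving out any 1 fresh array reduced the count to 1 or 0: it was 0 without either double-negative, ICOS single-positive or double-positive array, and 1 without either CD103 single-positive array. It was also 1 without either activated CD103 single-positive array. Whether the CD103 difference depended on ICOS in fresh cells was also fitted, and 0 of the 34 genes passed (limma; 9 genes in all, 0.0451%, and 989 at an unadjusted p below 0.05). In that comparison 13 of the 14 enzymes had a negative difference, with a median of -0.48 over the 14 and 0.01 over all genes, the largest of the enzymes in Tpi1 (-1.24). Outside the enzymes Ak4 stood at -1.47 and Mif at -1.08.

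**Figure D4:**
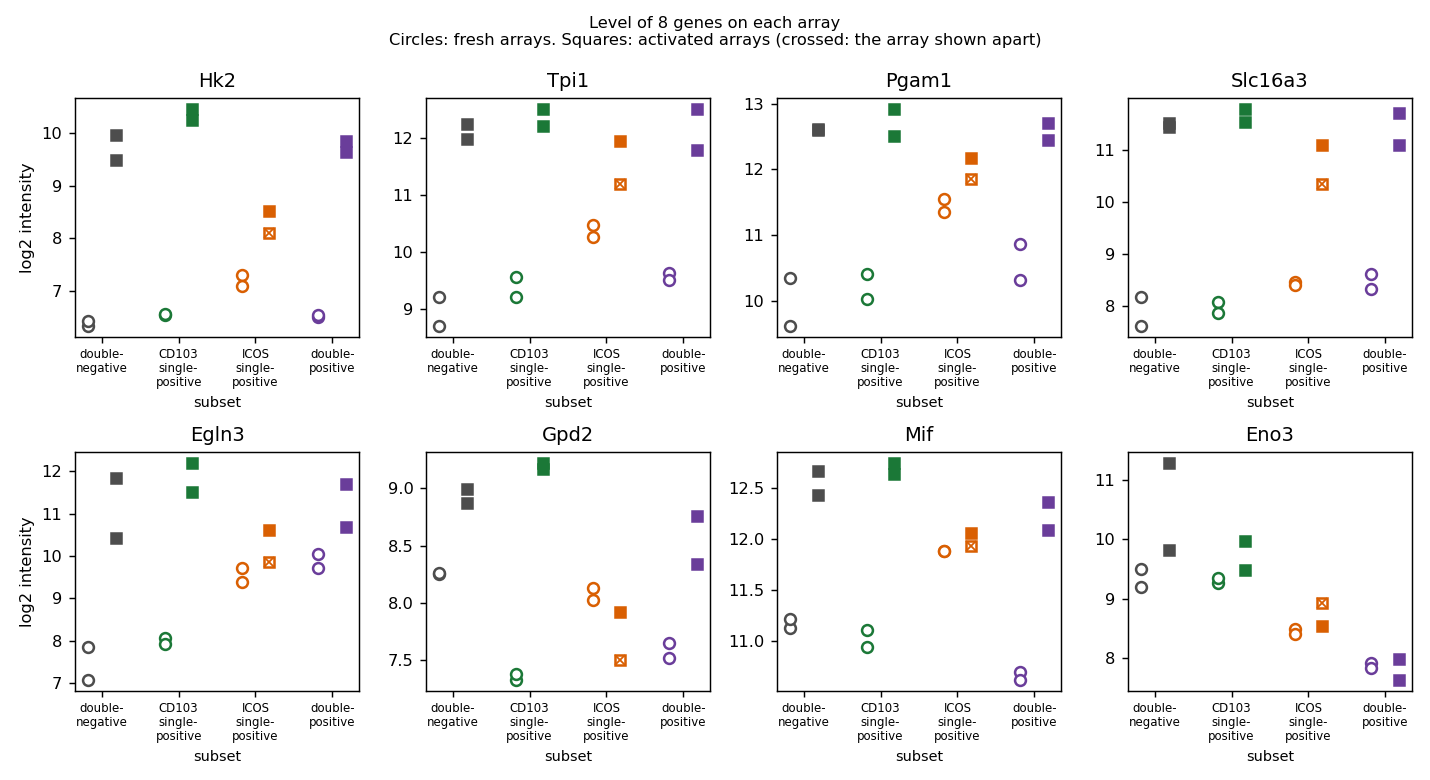
Log2 intensity (vertical axes, each with its own range) of 8 genes on the 16 arrays, by subset; open circles are fresh, filled squares activated arrays, and the crossed square is activated ICOS single-positive replicate 2. Hk2 and Gpd2 show the low activated ICOS single-positive arrays (Gpd2 at 7.92 and 7.50), Egln3 the high fresh ICOS-positive arrays, and Eno3 the low ICOS-positive arrays in both states.

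After activation those of the 34 genes that differed by ICOS were all lower in ICOS-positive cells. These groups, too, follow the sort before culture. Icos RNA read 11.25 on activated ICOS single-positive replicate 2, below the activated ICOS-negative arrays (11.63 to 12.12). The other activated ICOS-positive arrays read 12.87 to 12.91. Between ICOS-positive and ICOS-negative activated cells 6 of the 34 genes passed (6.94% of all genes passed, 5% lower), all lower with ICOS, and 31 of the 34 had a negative difference, with a median of -0.38 against -0.001 for all genes. The genes called were Eno3 (-1.86 ± 0.26, SE), Vegfa (-1.01 ± 0.26), Hk2 (-1.0 ± 0.12), Gpd2 (-0.93 ± 0.11), Pfkm (-0.61 ± 0.15) and Mif (-0.51 ± 0.09). Eno3 read 11.28 and 9.81 in double-negative, 9.96 and 9.48 in CD103 single-positive, 8.54 and 8.93 in ICOS single-positive and 7.98 and 7.63 in double-positive cells, so the order of the subsets was that of the fresh cells. Gpd2 read 8.87 and 8.99, 9.17 and 9.22, 7.92 and 7.50, and 8.76 and 8.34 in the same order. Mif read 12.44 and 12.67, 12.64 and 12.75, 12.06 and 11.94, and 12.37 and 12.09, and Pfkm 8.65 and 8.47, 8.90 and 8.38, 7.99 and 8.08, and 8.26 and 7.62. In these 4 genes the highest ICOS-positive array stayed below the lowest ICOS-negative one. The arrays overlapped in the other 2: Hk2 read 9.84 and 9.64 in double-positive cells, between the double-negative values of 9.49 and 9.95, and Vegfa read 8.79 on a double-positive and 8.29 on a double-negative array. For Hk2 the low values were those of ICOS single-positive cells. For Vegfa they were those of ICOS single-positive cells (7.29 and 7.35) and of double-positive replicate 2 (7.54).

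The activated ICOS single-positive arrays were often the lowest of the activated ones. For 10 of the 34 genes (29.4%, against 6.79% of all genes) both lay below the other 6 activated arrays: Hk2, Pgam1, Pkm, Bnip3, P4ha2, Vegfa, Higd1a, Ddit4, Gpd2 and Mif. Kdm3a was the 1 gene for which both lay above (6.51% of all genes), as it was for replicate 1 alone (13.1%). Replicate 1 alone, the array with a Foxp3 level of 12.64, lay below those 6 for the same 10 genes, where 17.5% of all genes did. Its Itgae level was that of activated CD103 single-positive cells, as given above. Without replicate 2 the ICOS comparison called 4 genes (6.65% of all genes), Eno3 (-1.96), Hk2 (-0.90), Gpd2 (-0.83) and Mif (-0.48), while Vegfa (-1.02, adjusted p 0.0728, limma) and Pfkm (-0.64, adjusted p 0.0634) did not pass. Without activated double-positive replicate 1 the count was 11, and with the 8 activated arrays alone in the fit it was 3. For Gpd2 the activated ICOS single-positive arrays also lay below the fresh ones of the same subset (8.03 and 8.13), a difference of -0.37 that did not pass.

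The change of the ICOS difference between the states was tested directly. That also tests whether ICOS-positive cells, averaged over CD103, rose less than ICOS-negative cells in culture. It passed for 10 of the 34 genes, all in the negative direction (background 6.72%, or 4.65% in that direction), with a median of -0.63 over the 34 and 0.047 over all genes. Of the 14 enzymes 6 passed: Hk2 (-1.39 ± 0.17, SE), Pgam1 (-1.29 ± 0.26), Tpi1 (-1.17 ± 0.29), Pgk1 (-0.94 ± 0.22), Pkm (-0.84 ± 0.12) and Aldoa (-0.63 ± 0.14). The others were Egln3 (-2.75 ± 0.48), Slc16a3 (-1.02 ± 0.27), Gpd2 (-0.96 ± 0.15) and Mif (-0.68 ± 0.12). In Mif and Gpd2 double-positive cells rose more than double-negative cells, though less than CD103 single-positive cells. Mean Mif went from 10.66 to 12.23 in double-positive, 11.18 to 12.55 in double-negative and 11.89 to 12 in ICOS single-positive cells. Mean Gpd2 went from 7.59 to 8.55, 8.25 to 8.93 and 8.08 to 7.71 in that order. In the other genes that passed, double-positive cells rose less than either ICOS-negative subset. For Egln3 the sign turned, from 1.98 in fresh to -0.77 in activated cells, the latter not past the threshold. Without activated ICOS single-positive replicate 2, 7 genes passed (5.92% of all genes), and Tpi1 (adjusted p 0.0598, limma), Pgk1 (0.0613) and Slc16a3 (0.0741) did not. Cell cycle genes moved in the same way, 19 of 19 with a negative change and a median of -2.39, from fresh levels that already differed to activated levels between 10.27 and 11.04, and their part in the result was not tested.

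**Figure D5:**
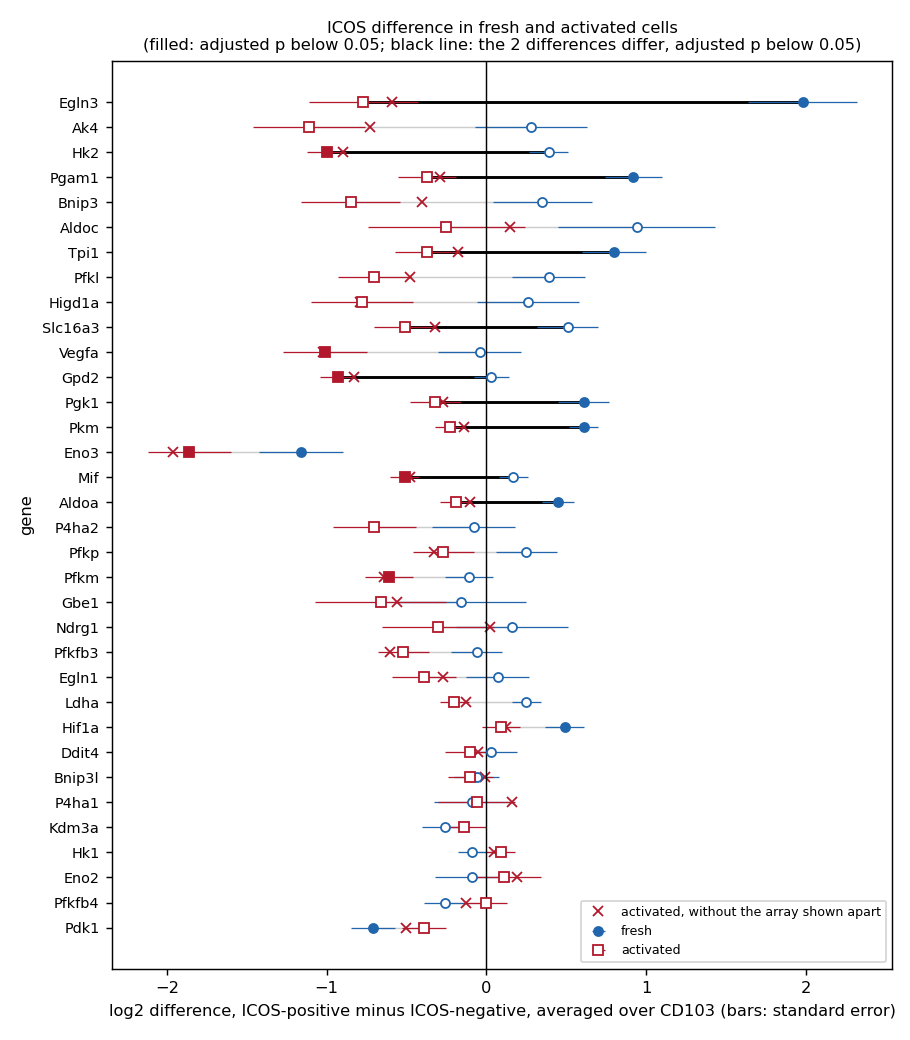
Log2 difference between ICOS-positive and ICOS-negative cells (horizontal axis) for the 34 genes, in fresh (circles) and activated cells (squares), with standard errors; filled symbols have an adjusted p below 0.05, crosses leave out activated ICOS single-positive replicate 2, and black lines join differences that changed between the states at that threshold. For the 10 genes with a black line the activated symbol lies to the left of the fresh one, from 1.98 to -0.77 in Egln3.

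Few of the 34 genes differed by CD103 after activation. The groups follow the sort before culture. The CD103-negative side therefore holds activated ICOS single-positive replicate 1, whose Itgae level was that of activated CD103 single-positive arrays (9.94 and 9.87). Without replicate 2, that array alone stands for its subset. Between CD103-positive and CD103-negative activated cells Hk2 (1.02 ± 0.12, SE; limma, adjusted p 0.0062) and Gpd2 (0.55 ± 0.11, 0.0498) were higher with CD103, 2 of the 34 where 0.717% of all genes passed, 0.201% higher. The Gpd2 call ended without activated ICOS single-positive replicate 2 (0.45, adjusted p 0.137), while Hk2 passed (0.92, adjusted p 0.0127; 0.361% of all genes). Leaving out any other array gave 1 gene as well, apart from activated ICOS single-positive replicate 1, without which 4 passed, and activated double-negative replicate 2, without which 2 passed. The change of the CD103 difference between the states was positive in 26 of the 34 genes and passed for 3, all positive (0.296% of all genes passed, 0.105% positive): Hk2 (1.27 ± 0.17), Gpd2 (1.25 ± 0.15) and Mif (0.88 ± 0.12). These 3 also passed without activated ICOS single-positive replicate 2 (0.321% of all genes). Their count fell to 1 without fresh double-negative replicate 2, CD103 single-positive replicate 2, ICOS single-positive replicate 1 or either double-positive array, and to 0 without fresh ICOS single-positive replicate 2. Gpd2 thus read lower with CD103 before culture and higher after it. Whether the CD103 difference depended on ICOS after activation was not detectable in any of the 34 genes (limma; 3 genes in all, 0.015%, and 518 at an unadjusted p below 0.05). Of the 34, 1 passed without activated ICOS single-positive replicate 1 and 0 without replicate 2, where 0% of all genes did (377 at an unadjusted p below 0.05).

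Further genes of the same pathways were read from lists outside the 34. Across all genes 31.2% passed between fresh and activated cells, 14.4% higher and the rest lower. Of 8 transporters of glucose and lactate, 6 rose with activation and 0 fell, among them Slc2a6 (2.63 ± 0.31, SE), Slc2a1 (1.68 ± 0.14), the main glucose transporter of activated T cells, Slc16a1 (0.79 ± 0.10), a carrier of lactate, and Bsg (0.77 ± 0.16), its chaperone. Slc16a1 differed by ICOS after activation (-1.26 ± 0.14; limma, adjusted p 0.00236), and the change of that difference between the states was -1.61 ± 0.20. Of 15 other glycolysis genes 6 rose and 4 fell, with Pgm1 (1.66) and Pgp (1.05) above and Adpgk (-0.70) and Bpgm (-0.56) below. Of 34 other genes of oxygen sensing and hypoxia response 18 rose and 4 fell, led by Bhlhe40 (2.59), Nfil3 (2.29), Plod2 (2.14) and Epas1 (1.83). Of 8 pentose phosphate genes 4 rose and 1 fell, led by Pgd (1.04) and Tkt (0.85), and of 22 genes of pyruvate entry and the citrate cycle 8 rose and 2 fell, led by Mpc1 (0.72) and Sdhd (0.69). In activated cells all 22 of the latter and all 8 pentose phosphate genes were lower with ICOS in sign, of which 5 and 3 passed (6.94% of all genes, 5% lower), with the largest differences in Suclg2 (-0.92) and Prps1 (-0.79). Without activated ICOS single-positive replicate 2, 3 and 1 passed, and Suclg2 (-0.94, adjusted p 0.0067, limma) was among them while Prps1 (-0.82, adjusted p 0.0565) was not. The 2 results for Slc16a1 by ICOS passed without that array as well (-1.35 and -1.71).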

How the data were processed

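The authors hybridised biotin-labelled cDNA to 1-colour Affymetrix arrays and deposited log2 intensities of 35556 probe sets, made with RMA in the affy package per the submitters' processing notes; their versions were not given in the sources used here. The gene annotation named 21789 probe sets with 1 symbol, 1621 with several and 12146 with none. Only sets with 1 symbol were used, the brightest per gene, giving 19938 genes. Samples were grouped by the labels' subset and state.

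All 16 arrays were fitted in limma 3.58.1 (R 4.3.3) as 8 group means, with 8 residual and 2.90 prior degrees of freedom. 13 comparisons were made, with Benjamini-Hochberg adjustment over all genes and a threshold of 0.05. The fit was tested on simulated data with independent noise, unlike same-numbered arrays here, whose deviations correlated. There 86% to 100% of changed genes were recovered, and 2.4% to 8.7% of the calls were false, in part above the threshold. The 34 genes, the other lists and the tests were chosen with earlier results of these data known. Values on every array are given for genes that pass in a comparison, up to 10 per comparison by size, and for Hif1a, Hk2, Slc16a3, Pfkfb3 and Egln3; from other lists up to 4 passing genes are named. For 8 genes the brightest set's identifier lies among those of another chromosome. Alternatives were scaling, a filter on dim genes, the choice of probe set, the replicate block, array weights, an intensity trend, fits within a state and leaving out each array. Arrays have no counting depth, and their number limits the precision. That the replicates came from separate animals is not stated beyond the 2 independent experiments.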

Additional observations from a re-analysis of the deposited data

Results flagged for a closer look

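The ICOS difference of 10 genes changed between fresh and activated cells by a direct test (limma, adjusted p below 0.05). On the log2 scale the change was -2.75 in Egln3, -1.39 in Hk2, -1.29 in Pgam1, -1.17 in Tpi1, -1.02 in Slc16a3, -0.96 in Gpd2, -0.94 in Pgk1, -0.84 in Pkm, -0.68 in Mif and -0.63 in Aldoa. The difference between CD103-positive and CD103-negative cells changed between the states in 3 genes, by 1.27 in Hk2, 1.25 in Gpd2 and 0.88 in Mif. For that change 0.296% of all genes passed, 0.105% in the positive direction. Hk2, Gpd2 and Mif are in both sets, and for each of them the activated ICOS single-positive arrays were the lowest activated arrays. Groups of 2 arrays are too small for a test of single outlying arrays.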

How the results depend on the processing

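Over 127 combinations of a passing gene and a comparison, 81 passed in every setting tried, and of 3138 values under another setting 2843 kept their direction and side of the threshold, 295 lost the call and 0 changed direction. Leaving out 1 array at a time, the genes called among the 34 ranged from 24 to 27 for activated against fresh cells on average, from 17 to 23 in double-negative, 18 to 23 in CD103 single-positive, 13 to 19 in double-positive and 1 to 7 in ICOS single-positive cells. For ICOS they ranged from 2 to 9 in fresh and 4 to 11 in activated cells and from 7 to 15 for the change between the states, and for CD103 from 0 to 2, 1 to 4 and 0 to 4. For the dependence of CD103 on ICOS they were 0 in fresh and 0 to 1 in activated cells. That dependence in fresh cells, with 0 genes, gave 1 under quantile normalization, the mean of a gene's probe sets, array weights or an intensity trend, and 2 with the fresh arrays alone. The CD103 difference, with 2 genes in each state, gave 1 under median centring or the intensity trend in both states, 1 without dim genes in fresh cells, and 1 under array weights and 0 with the activated arrays alone in activated cells. The ICOS difference in activated cells gave 3 in place of 6 with the activated arrays alone, where 443 in place of 1383 of all genes passed. The cause of these changes was not tested.

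Replicate numbers were tried as a block. Deviations of same-numbered arrays correlated at 0.50 to 0.75 between fresh groups and at 0.11 to 0.45 between activated groups, with -0.02 the lowest of 28 pairs, and with 2 numbers this does not settle a pairing. Under the replicate block the ICOS difference in activated cells called 12 genes in place of 6 (2734 against 1383 of all genes) and the dependence of CD103 on ICOS in fresh cells 2 in place of 0 (71 against 9 of all genes; 0 against 3 in activated cells). The block changed no other count of the 34 genes by over 1.5 times. Over all genes it raised the change in ICOS single-positive cells from 417 to 1064, in double-positive cells from 2803 to 4412, the fresh ICOS difference from 1301 to 2275 and the change of the ICOS difference from 1339 to 2638; for CD103 it gave 143 in place of 41 in fresh and 519 in place of 143 in activated cells, and 370 in place of 59 for the change.

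Quantile normalization moved the share of higher among all genes called from 28% to 46.1% for ICOS in activated cells, from 30.7% to 45.8% for the change of the ICOS difference and from 55.6% to 41.2% for the dependence in fresh cells. Median centring moved it from 49.4% to 39% in ICOS single-positive cells. Neither moved the median of all genes by over 0.1, and the genes called kept their direction under both. Over all genes the CD103 difference in fresh cells passed in 268 with the fresh arrays alone and in 9 without dim genes, in place of 41, and in 158 without activated ICOS single-positive replicate 2, and its change in 133 under quantile normalization in place of 59. With the activated arrays alone it passed in 0 in place of 143 in activated cells. Its dependence on ICOS, with 9 of all genes in fresh cells, gave, the block aside, from 1 without dim genes to 62 with the fresh arrays alone, and with 3 in activated cells it gave 0 or 1 under scaling, without dim genes or with the activated arrays alone. Array weights came out equal within each pair of arrays, which a group mean of 2 arrays forces. This setting therefore could not tell the arrays of a pair apart. The choice of probe set and the fit without both activated ICOS single-positive arrays were added after the data were seen, and moved no count of the 34 genes by over 1.5 times.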

Other observations

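Further pathway genes differed by ICOS in fresh cells, where 6.53% of all genes passed and 4.1% were higher. Of 8 pentose phosphate genes 3 were higher in ICOS-positive cells, Rpia (0.48 ± 0.10, SE), Pgd (0.47 ± 0.12) and Taldo1 (0.40 ± 0.11), and of 22 genes of pyruvate entry and the citrate cycle 2 were, the pyruvate carrier subunit Mpc1 (0.48 ± 0.08) and the succinate dehydrogenase subunit Sdhd (0.37 ± 0.09). Ldhb, the lactate dehydrogenase subunit that complements Ldha, was lower (-0.51 ± 0.13; limma, adjusted p 0.0449), and Rora, a nuclear receptor, was higher by 1.80 ± 0.31 (0.00515). Of 8 transporters 0 passed by limma. With activated ICOS single-positive replicate 2 left out of the shared fit, Taldo1 (adjusted p 0.057, limma) and Sdhd (0.0501) did not pass.

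After activation Car12, a carbonic anhydrase, was lower with ICOS by -1.08 ± 0.19 and Fam162a, a hypoxia-induced mitochondrial gene, by -0.79 ± 0.13, while Pdk2, a relative of Pdk1, was higher by 0.75 ± 0.18. Without activated ICOS single-positive replicate 2, Car12 (-1.11) and Fam162a (-0.75) passed and Pdk2 (0.61, adjusted p 0.0833, limma) did not. The change of the ICOS difference between the states passed in opposite directions for the kinases of pyruvate dehydrogenase, 1.15 ± 0.25 in Pdk2 and -0.86 ± 0.21 in Pdk3, and Pdk1 differed by 0.32, which did not pass. Epas1, a relative of Hif1a, changed by -1.50 ± 0.34 in the same test (limma, adjusted p 0.0255). Without that array Pdk2 passed (1.01), while Pdk3 (-0.79, adjusted p 0.0768, limma) and Epas1 (-1.37, adjusted p 0.0526) did not.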
